A study of Mus musculus with 2 samples.

Results

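The caseins are the main proteins of milk, and the mouse genome carries 5 genes for them: *Csn1s1* (alpha-S1-casein), *Csn2* (beta-casein), *Csn1s2a* and *Csn1s2b* (the rodent gamma- and delta-caseins, relatives of alpha-S2-casein) and *Csn3* (kappa-casein). All 5 were found by symbol among the 25810 named genes counted in both libraries, and they were chosen by gene family and not by their values. The libraries held poly(A) RNA of mammary epithelial cells (MECs) from the inguinal glands of mice on lactation day 3, 1 library from wild type (WT) mice and 1 from *Igfbp7*-/- mice, in which the first coding exon of *Igfbp7* is deleted from the germ line, so that every tissue of the animal lacks it. *Igfbp7* encodes a secreted protein that binds insulin-like growth factors, and the comparison addressed which transcripts differ in MECs when it is absent. The cells had been depleted with magnetic beads of leukocytes (CD45), erythroid cells (Ter119) and, by the methods, endothelial cells (CD31), where the labels write CD35. Both genotypes carry the background C57BL/6 in the labels, whereas the methods place the knockout on CD1. The number and age of the animals behind each library is not given in the sources used here, and with 1 library per genotype the spread between animals is not known. The values below therefore compare these 2 libraries, and every interval covers the counting of reads only.

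Caseins are secreted by the luminal cells of the lactating alveolus. The alpha- and beta-type caseins carry clusters of phosphoserine that bind calcium phosphate, and they pack into micelles whose surface is covered by the glycosylated kappa-casein, which keeps the micelles in suspension. Their genes are switched on in pregnancy and lactation by prolactin, through its receptor, the kinase JAK2 and the transcription factor STAT5, together with glucocorticoids and C/EBP-beta.

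The deposited level of a gene is its RPM (reads per 1000000 mapped reads), and RPKM is RPM divided by the gene's length in kilobases. The mapped totals were 34327854 reads in WT and 35016847 in *Igfbp7*-/-, and a single read thus added 0.0291 RPM to a gene in WT and 0.0286 RPM to one in *Igfbp7*-/-. Reads on named genes made up 82.3% of the total in WT and 72.3% in *Igfbp7*-/-, and scaling to these reads in place of all mapped reads would raise every log2 ratio of *Igfbp7*-/- to WT by 0.19. The targeted gene matched the labels, since *Igfbp7* itself had 5224 reads (152.2 RPM) in the WT library and 37 reads (1.06 RPM) in the *Igfbp7*-/- library. Low counts were mostly even (75.8% in WT and 74.1% in *Igfbp7*-/-, among counts of up to 20), as when both mates of a pair are counted, and intervals were therefore computed on pairs of reads.

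The 5 casein genes lie in a single cluster on chromosome 5. In the NCBIM37 mouse annotation, the build the labels call mm9, *Csn1s1* occupies chr5:88095249-88111598 on the plus strand. *Csn2* follows on the minus strand at chr5:88121647-88128446, tail to tail with *Csn1s1* and 10048 bp from it. *Csn1s2a* (chr5:88203592-88217822) and *Csn1s2b* (chr5:88237107-88253451) are a neighbouring pair on the plus strand with 19284 bp between them, and *Csn3* (chr5:88354604-88361690, plus strand) is a further 101152 bp away. The cluster spans 266442 bp from the first to the last casein gene.

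The promoters are shown because STAT5, which carries the prolactin signal to the casein genes, binds the short palindrome TTCNNNGAA. RefSeq promoters (build GRCm38.p6, 250 bases before to 50 bases after the transcription start) were matched for 3 of the 5 genes, *Csn1s1*, *Csn2* and *Csn1s2a*, and each held this motif at 1 place, where it reads alike on both strands. Among all 32851 promoters of that table, 8.30% held it. In *Csn1s1* the motif began 100 bases before the start and in *Csn2* 93 bases before it, whereas in *Csn1s2a* it began at base 21 after the RefSeq start. This contrast rests on the start used. The RefSeq start of *Csn1s2a* lies 117 bases upstream of the NCBIM37 gene start given above, against 16 bases for *Csn1s1* and 4 for *Csn2*. Measured from the NCBIM37 start, the *Csn1s2a* motif also lies upstream. The sequences run 5′ to 3′ on the strand of the gene with the STAT5 motif in capitals. The first is chr5:87665958-87666207 (plus strand), the second chr5:87699426-87699675 (minus strand), both the 250 bases before the start, and the third chr5:87774460-87774488 (plus strand), bases 11 to 39 after it.
Csn1s1: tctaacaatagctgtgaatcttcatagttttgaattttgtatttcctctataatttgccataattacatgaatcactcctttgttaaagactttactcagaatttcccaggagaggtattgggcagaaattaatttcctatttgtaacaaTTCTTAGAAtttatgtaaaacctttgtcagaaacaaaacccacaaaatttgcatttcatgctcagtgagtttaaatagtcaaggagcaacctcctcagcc
Csn2: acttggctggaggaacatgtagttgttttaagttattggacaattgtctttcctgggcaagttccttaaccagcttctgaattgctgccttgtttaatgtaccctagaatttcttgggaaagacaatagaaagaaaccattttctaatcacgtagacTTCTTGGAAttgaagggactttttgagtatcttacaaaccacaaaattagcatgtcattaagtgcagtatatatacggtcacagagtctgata
Csn1s2a: ttatagtgctTTCTTAGAAttacaatgac

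*Csn1s1* and *Csn1s2a* carried the same 9 letters, TTCTTAGAA, and *Csn2* differed from them in the variable centre, TTCTTGGAA. The C/EBP core TTNNGNAA, searched on both strands, was present 1 time in the *Csn1s1* window (90 bases before the start, 10 bases after the first base of the STAT5 motif and not overlapping it) and 2 times each in those of *Csn1s2a* and *Csn2*. This core was held by 40.7% of all promoters in the table. The motif TGTTCT, bound by the glucocorticoid receptor, was found in *Csn1s2a* alone of the 3 windows, 59 bases before the start, and 19.0% of all promoters held it. A match of letters is not a measured binding site, and no binding was measured here.

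All 5 casein genes were lower in the *Igfbp7*-/- library than in the WT library, and all 5 by more than 2 times. As a background, 14026 genes reached 1 RPM in WT, in *Igfbp7*-/- or in both, and 23.0% of them were at least 1.5 times lower in *Igfbp7*-/-, and 13.8% at least 2 times lower. Together the caseins summed to 109570 RPM in the WT library and to 43110 RPM in the *Igfbp7*-/- library. As a share of mapped reads this was 10.96% (95% Clopper-Pearson interval 10.94% to 10.97%) in WT and 4.31% (4.30% to 4.32%) in *Igfbp7*-/-, or 1 read in 9.13 in WT and 1 in 23.2 in *Igfbp7*-/-. The log2 ratio of the sum was -1.35, with an interval of -1.35 to -1.34, and thus 2.54 times less in *Igfbp7*-/-. The median log2 ratio of the 5 caseins was -1.38, that of all 14026 genes was 0.035, and the middle 50% of them lay between -0.52 and 0.51.

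The beta-casein gene *Csn2*, the source of the most abundant single casein transcript, was read 1822372 times in WT (53087 RPM) and 699289 times in *Igfbp7*-/- (19970 RPM). It was the gene with the highest RPM in each library, and its log2 ratio was -1.41 (interval -1.42 to -1.40). The alpha-S1-casein gene *Csn1s1* had 806956 reads in WT (23507 RPM) and 342797 in *Igfbp7*-/- (9789 RPM). Its log2 ratio was -1.26 (-1.27 to -1.26), and in the order of RPM it was gene 2 in WT and gene 4 in *Igfbp7*-/-.

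The kappa-casein gene *Csn3*, whose product caps the micelle, had 668254 reads in WT (19467 RPM) and 261689 in *Igfbp7*-/- (7473 RPM), a log2 ratio of -1.38 (-1.39 to -1.37). The gamma-casein gene *Csn1s2a* had 453414 reads in WT (13208 RPM) and 204330 in *Igfbp7*-/- (5835 RPM). Its log2 ratio of -1.18 (-1.19 to -1.17) was the one nearest to 0 among the 5, with the *Igfbp7*-/- level 2.26 times below that of WT. The log2 ratios of these 4 abundant caseins lay within 0.23 of each other.

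*Csn1s2b*, the delta-casein gene, stood apart from the other caseins in level and in ratio. Its 10306 reads in WT came to 300.2 RPM, and its 1485 reads in *Igfbp7*-/- to 42.4 RPM. Its log2 ratio was -2.82 (-2.94 to -2.71), which is 7.08 times less in *Igfbp7*-/- (6.56 to 7.66), and only 195 of the 14026 genes had a lower one. In the order of RPM it was gene 335 in WT and gene 3244 in *Igfbp7*-/-. The difference between its log2 ratio and that of *Csn2*, the lowest of the other caseins, was -1.41.

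**Figure D1:**
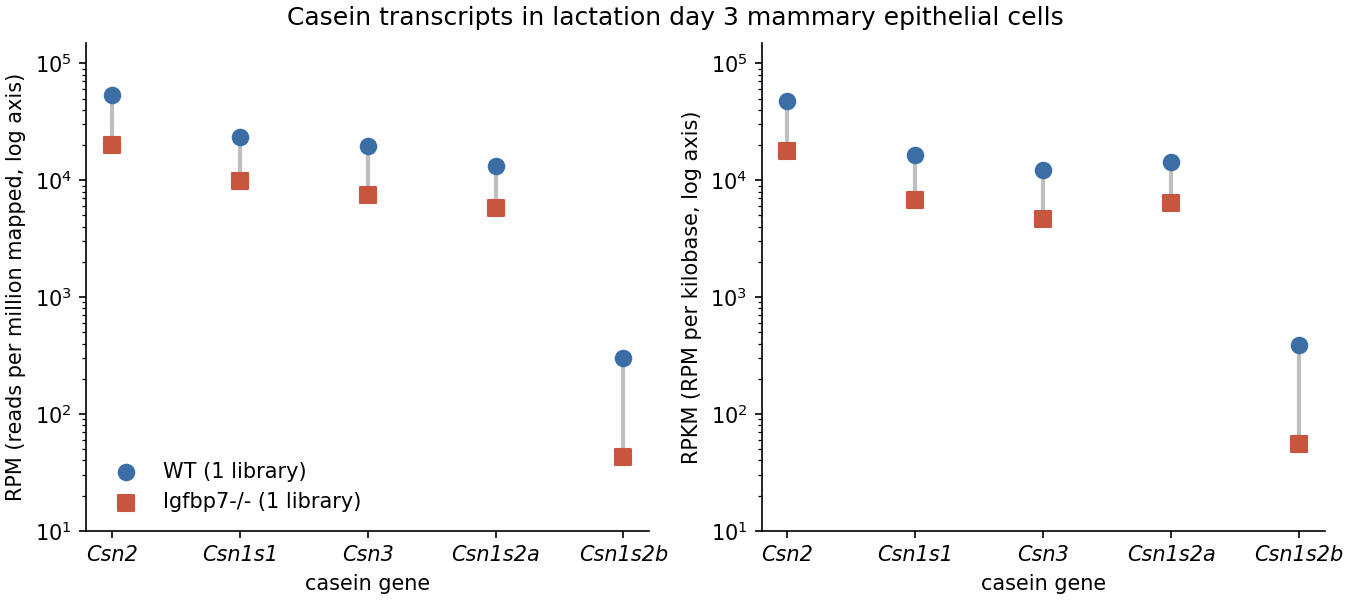
The level of each casein gene in the WT library (circles) and the *Igfbp7*-/- library (squares), as RPM on the left and RPKM on the right, both on log axes. Every square lies below its circle, and *Csn1s2b* lies far below the other 4 genes, at 300.2 RPM in WT and 42.4 RPM in *Igfbp7*-/-.

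Per length, the order of the caseins was the same in both libraries. In WT, *Csn2* had 47399 RPKM, *Csn1s1* 16416 RPKM, *Csn1s2a* 14357 RPKM, *Csn3* 12190 RPKM and *Csn1s2b* 392.4 RPKM. In *Igfbp7*-/-, the RPKM was 17830 for *Csn2*, 6836 for *Csn1s1*, 6343 for *Csn1s2a*, 4680 for *Csn3* and 55.4 for *Csn1s2b*. The place of *Csn3* rested on the length behind the RPKM. The deposited values imply 1597 bp for *Csn3*, whereas its annotated transcript has 991 bp, and with annotated lengths *Csn3* came to 19644 reads per kilobase and 1000000 mapped reads in WT and 7541 in *Igfbp7*-/-, above *Csn1s1* (16613 and 6918). This choice of length was made after the data had been seen, and it leaves the ratios between genotypes as they are. Without replicates, the neighbours in this order cannot be set against the spread between animals.

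The proportions of the abundant caseins among themselves differed much less between the libraries than their levels did. Of all casein reads, *Csn2* took 48.5% in WT and 46.3% in *Igfbp7*-/-, *Csn1s1* 21.5% and 22.7%, *Csn3* 17.8% and 17.3%, and *Csn1s2a* 12.1% and 13.5%. The share of *Csn1s2b* was 0.274% (0.267% to 0.282%) in WT and 0.0984% (0.0914% to 0.106%) in *Igfbp7*-/-. These shares are set within a library and do not depend on how the libraries are scaled. By RPKM, *Csn2* made up 52.2% of the casein total in WT and 49.9% in *Igfbp7*-/-, and *Csn1s2a* 15.8% and 17.7%.

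**Figure D2:**
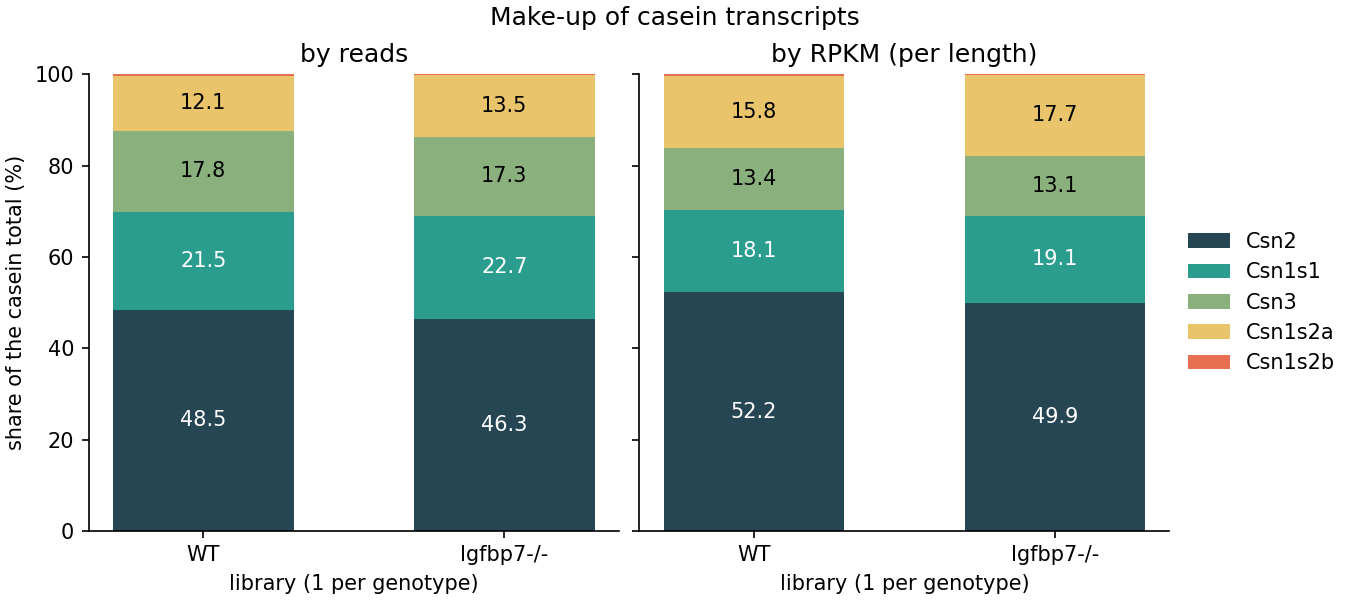
The share of each gene in the casein total of the WT and the *Igfbp7*-/- library in percent, by reads on the left and by RPKM on the right. The bars of both genotypes are close to each other, with *Csn2* at 48.5% of reads in WT and 46.3% in *Igfbp7*-/-, and *Csn1s2b* is the thin band at the top.

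Set against *Csn2* in the same library, the reads of *Csn3* were 1.02 times as many in *Igfbp7*-/- as in WT (1.01 to 1.03). The ratio of *Csn1s1* to *Csn2* was 1.11 times that of WT (1.10 to 1.11), and the ratio of *Csn1s2a* to *Csn2* 1.17 times (1.16 to 1.18). None of these intervals holds 1, but they cover the counting of reads only, and the spread of these ratios between animals is not known. *Csn1s2b* per *Csn2* was 0.375 times that of WT (0.347 to 0.405). The neighbouring pair went apart accordingly, with 44.0 reads of *Csn1s2a* for each read of *Csn1s2b* in WT and 137.7 in *Igfbp7*-/-.

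The casein transcripts are different enough to be counted separately. The annotated transcripts shared between 38.5% and 48.4% of their positions in pairwise alignment, with 47.2% for *Csn1s2a* and *Csn1s2b*, and in no pair did any 35-base window of one transcript, the length of the shorter read, match the other with 3 or fewer mismatches, the number allowed in mapping.

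Ratios between genotypes rest on the total to which each library is scaled. Under 7 totals, including all mapped reads, the reads on named genes with and without the caseins, TMM and median-of-ratios scaling and, chosen after the data had been seen, named genes without ribosomal and other small RNA rows, the log2 ratio of *Csn2* ranged from -1.43 to -1.21, that of *Csn1s1* from -1.28 to -1.06, that of *Csn3* from -1.40 to -1.18 and that of *Csn1s2b* from -2.84 to -2.62. *Csn1s2a*, from -1.20 to -0.98, was the only member that came to less than 2 times, under both totals that count only listed reads with the caseins kept in. With reads on named genes as the total, the median log2 ratio of all genes was 0.22 and that of the summed caseins -1.16. The difference between them was -1.38, as with the deposited RPM. This follows from the arithmetic, since a new total shifts every log2 ratio alike, apart from the pseudocount and the minimum.

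**Figure D3:**
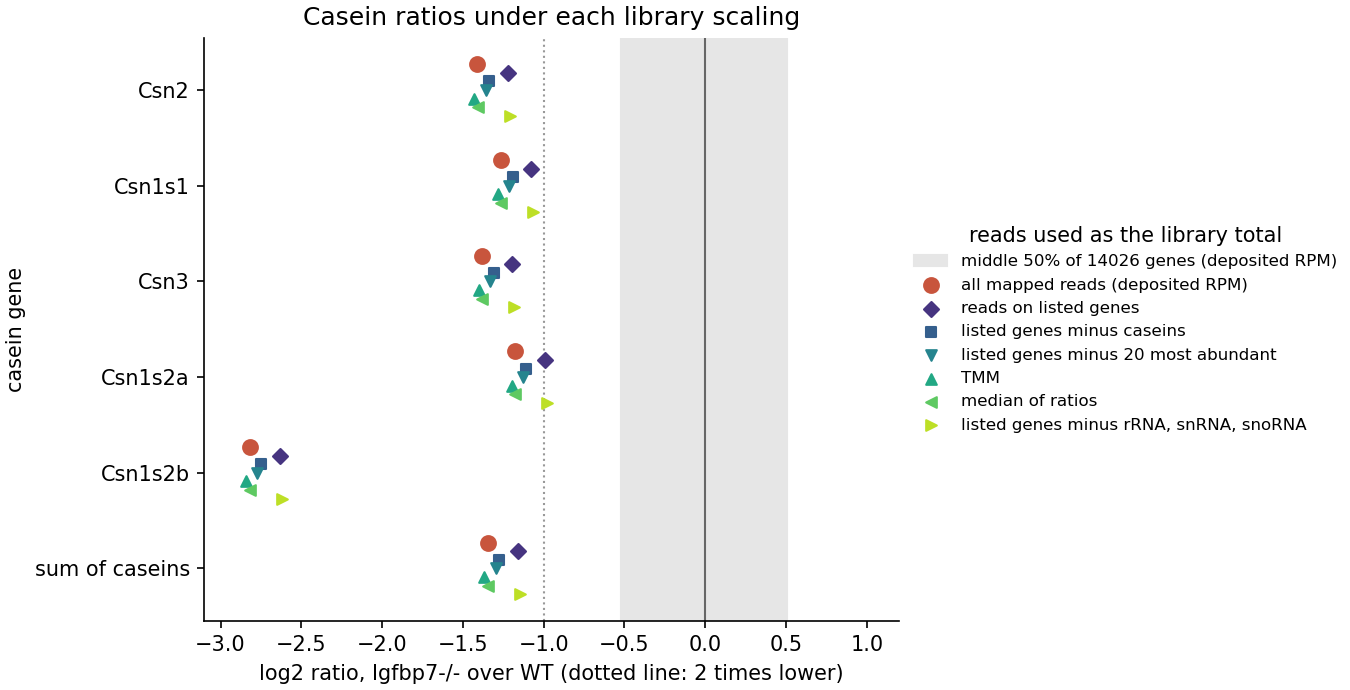
The log2 ratio of *Igfbp7*-/- to WT for each casein gene and their sum under 7 library totals (symbols), beside the middle 50% of all 14026 genes (grey band, -0.52 to 0.51). Every symbol lies to the left of the band, and the dotted line at 2 times lower is crossed only by *Csn1s2a*.

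The genes around the cluster were nearly silent in both libraries. Within 500 kb of it the annotation places 22 other genes, of which 18 were in the table and 16 stayed below 1 RPM in each library, 8 of them with no reads at all. The highest of these 16 was *Odam*, an enamel-associated gene that lies between *Csn1s2b* and *Csn3*, with 12 reads in WT and 2 in *Igfbp7*-/-. The 2 neighbours above 1 RPM were both sulfotransferase genes upstream of *Csn1s1*. Both reached 1 RPM in WT only, so that this minimum itself favoured a lower level in *Igfbp7*-/-, and their values are given as a description. *Sult1e1*, which encodes estrogen sulfotransferase, had 140 reads in WT (4.08 RPM) but 10 in *Igfbp7*-/- (0.286 RPM), a log2 ratio of -3.44 (-5.50 to -2.55). *Sult1d1* had 71 reads in WT (2.07 RPM) and 22 in *Igfbp7*-/- (0.628 RPM), a log2 ratio of -1.57 (-2.82 to -0.69), and this interval was wide enough to hold the ratios of all 5 caseins.

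**Figure D4:**
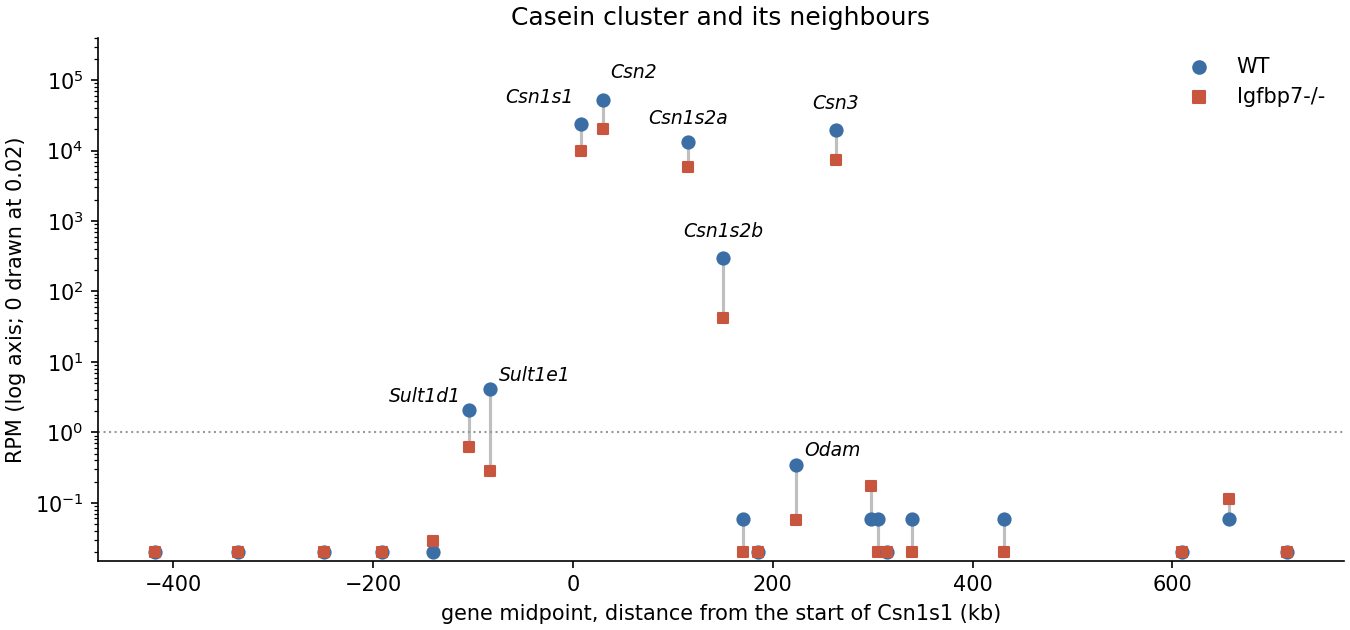
RPM of the casein genes and their annotated neighbours in the table (log axis) against the distance of each gene's midpoint from the start of *Csn1s1*, with WT as circles and *Igfbp7*-/- as squares. A gene without reads is drawn at 0.02 RPM, and the 5 caseins stand above neighbours that, apart from *Sult1d1* and *Sult1e1*, stay under the dotted line at 1 RPM.

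Genes that regulate casein transcription did not share the direction of the caseins as a group. They include inhibitors of cytokine receptor signalling as well as activators, so that their counts and median do not describe the activators alone. Of 22 such genes, 3 were lower in *Igfbp7*-/- by at least 1.5 times and 4 higher, against 23.0% lower and 21.4% higher among all genes, and their median log2 ratio was 0.011, and -0.0099 with TMM factors. The transcription factor gene *Stat5a* was lower, with 64.8 RPM in WT and 31.4 RPM in *Igfbp7*-/- (log2 ratio -1.04), while its partner *Stat5b* had 46.03 and 38.8 RPM (-0.25). The prolactin receptor gene *Prlr* was higher, with 30.2 RPM in WT and 102.6 RPM in *Igfbp7*-/- (1.76). *Jak2*, the kinase bound to that receptor, had 192 RPM in WT and 152 RPM in *Igfbp7*-/- (-0.33), within 1.5 times.

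*Elf5*, an ETS factor of alveolar cells, stood at 137 RPM in WT against 95.9 RPM in *Igfbp7*-/- (-0.52), and the glucocorticoid receptor gene *Nr3c1* had 175 and 220 RPM (0.33), so that neither reached 1.5 times. *Cebpb*, which encodes C/EBP-beta, was at 58.0 RPM in WT and 113.5 RPM in *Igfbp7*-/- (0.97). Among the SOCS genes, whose products damp cytokine receptor signalling and which STAT5 itself induces, *Socs2* had 64.2 RPM in WT and 33.5 RPM in *Igfbp7*-/- (-0.94). *Socs3*, the SOCS gene with the highest level in this list, had 126.5 RPM in WT and 113.8 RPM in *Igfbp7*-/- (-0.15). *Socs1* was low in both, at 3.41 and 1.37 RPM (-1.25). *Cish*, another inhibitor of this kind, had 79.4 and 61.2 RPM (-0.38).

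Caseins are made on the endoplasmic reticulum, folded, phosphorylated in the Golgi by the kinase FAM20C and loaded with calcium. Of the genes for these steps, 34 reached 1 RPM, and 6 were lower in *Igfbp7*-/- by at least 1.5 times and 1 was higher, with a median log2 ratio of -0.17. Among all genes 23.0% were lower and 21.4% higher, so that the share of lower genes in this list was below that of all genes. Named by the rule for the largest ratios, *Sec61b*, a subunit of the translocation channel of the endoplasmic reticulum, had 3100 reads in WT and 1751 in *Igfbp7*-/- (-0.85), *Sec11c* of the signal peptidase had 15.03 RPM in WT against 7.97 RPM in *Igfbp7*-/- (-0.91), and *Ssr4* of the translocon-associated complex had 81.3 and 45.7 RPM (-0.83). Other genes of the same machinery did not reach 1.5 times, with log2 ratios of 0.07 for *Sec61a1*, 0.07 for *Ssr1*, 0.47 for *Sec11a*, -0.24 for *Spcs2*, -0.41 for *Spcs3* and -0.50 for *Ssr3*.

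The member of this list with the lowest ratio was *Slc34a2*, a phosphate transporter gene, with 142.8 RPM in WT and 46.4 RPM in *Igfbp7*-/- (-1.62). *Galnt2*, which begins O-linked sugar chains such as those of kappa-casein, had 38.4 RPM in WT and 59.3 RPM in *Igfbp7*-/- (0.62). *Fam20c* had 31.1 and 45.3 RPM (0.54), short of 1.5 times. With the caseins left out of the library totals, 5 genes of this list in place of 1 were higher by at least 1.5 times and 6 were still lower.

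The other secreted milk proteins were split. Of 13 genes, 5 were lower in *Igfbp7*-/- by at least 1.5 times and 4 higher, against 23.0% lower and 21.4% higher among all genes. The median log2 ratio was -0.026, and 0.045 with the caseins left out of the library totals. The whey acidic protein gene *Wap* had 13731 RPM in WT and 3866 RPM in *Igfbp7*-/- (-1.83), lower in ratio than each of the 4 abundant caseins. *Glycam1*, a mucin-like whey protein gene, had 15705 and 5687 RPM (-1.47), and *Lalba*, which encodes the alpha-lactalbumin of lactose synthase, 401 and 189 RPM (-1.08). For each read of *Wap* there were 7.98 casein reads in WT and 11.2 in *Igfbp7*-/-, and for each read of *Glycam1* 6.98 and 7.58. *Ltf*, the lactoferrin gene, was the highest in ratio, with 369 RPM in WT and 1711 RPM in *Igfbp7*-/- (2.21), followed by *Mfge8* of the milk fat globule (832 and 1872 RPM, 1.17).

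**Figure D5:**
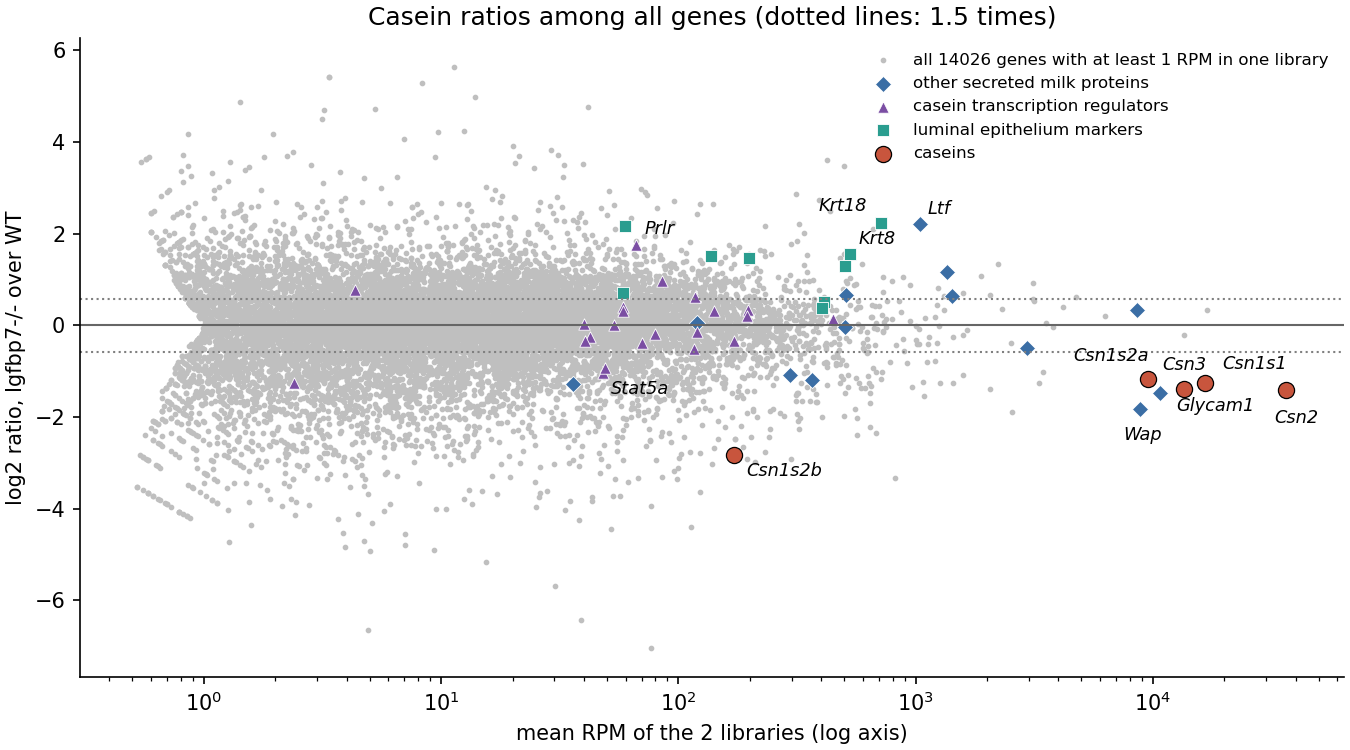
The log2 ratio of *Igfbp7*-/- to WT against the mean RPM of the 2 libraries (log axis) for 14026 genes (grey), with caseins, other secreted milk proteins, casein transcription regulators and luminal markers in colour and dotted lines at 1.5 times. The caseins lie at the right below the lower line, next to *Wap* and *Glycam1*, and *Csn1s2b* lies alone at a log2 ratio of -2.82.

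A total of 59 genes, 4 of the caseins among them, reached 1000 RPM in WT. Of these, 22 (37.3%) were at least 1.5 times lower in *Igfbp7*-/- and 8 higher, against 23.0% lower and 21.4% higher among all genes. This class was set by the WT level alone, which itself favours a lower level in *Igfbp7*-/-. The 10 genes with the highest RPM in WT were *Csn2*, *Csn1s1*, *Csn3*, *Glycam1*, the ribosomal RNA rows *LOC236598* and *Rn18s*, *Wap*, *Csn1s2a*, *Trf* and *Lars2*. In *Igfbp7*-/- they were *Csn2*, *LOC236598*, *Rn18s*, *Csn1s1*, *Trf*, *Csn3*, *Lars2*, *Csn1s2a*, *Malat1* and *Glycam1*. Of the 55 other genes in this class, those nearest in log2 ratio to the summed caseins were the chemokine gene *Cxcl1* (-1.34), the matrix genes *Sparc* (-1.39) and *Col3a1* (-1.26), *Clic4* (-1.25) and the adhesion molecule gene *Icam1* (-1.25). This is a likeness over 2 libraries only.

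The cells that carry casein RNA are luminal, and luminal markers were not lower in *Igfbp7*-/-. Of 9 general luminal markers 7 were higher by at least 1.5 times and 0 lower, against 21.4% higher and 23.0% lower among all genes. These markers summed to 1743 RPM for WT and to 4283 RPM for *Igfbp7*-/-. The keratin gene *Krt18* had 250.4 RPM in WT against 1174 RPM in *Igfbp7*-/- (2.23), and *Krt8* had 268 and 789 RPM (1.56). For each read of *Krt8* or *Krt18* there were 211.3 casein reads in WT and 22.0 in *Igfbp7*-/-, 9.62 times less. Against the epithelial adhesion genes, casein reads per *Epcam* read were 323.9 in WT and 89.5 in *Igfbp7*-/-, and per *Cdh1* read 313.8 and 94.8. In these bulk libraries, fewer secreting cells and less casein RNA per cell cannot be told apart.

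Genes of the secretory alveolar cell other than caseins differed among themselves. For the counts in this paragraph, the shares over all genes were 23.0% lower and 21.4% higher by at least 1.5 times. Of 6 markers, *Wap* and *Lalba* were lower by at least 1.5 times and *Plin2*, which coats lipid droplets, was higher, with 337 RPM in WT and 846 RPM in *Igfbp7*-/- (1.33). *Btn1a1*, the butyrophilin of the milk fat globule membrane, had 507 RPM in WT against 498 RPM in *Igfbp7*-/-, and *Xdh*, its partner there, had 410 and 517 RPM. Casein reads per *Btn1a1* read were 216.03 in WT and 86.5 in *Igfbp7*-/-, and per *Xdh* read 267.5 and 83.4. Hormone-sensing luminal markers, 1 of which is *Prlr*, were higher by at least 1.5 times in 5 of the 5 that passed 1 RPM, with sums of 38.7 RPM in WT and 130 RPM in *Igfbp7*-/-.

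Markers of the other cells in the preparation also differed between the libraries, where 23.0% of all genes were lower and 21.4% higher by at least 1.5 times. Myoepithelial markers were lower by at least 1.5 times in 7 of 8, with a summed level of 3284 RPM in WT against 1070 RPM in *Igfbp7*-/-, among them the smooth muscle actin gene *Acta2* with 1052 and 227 RPM (-2.21). Markers of the depleted lineages were still present, and the endothelial list was lower in 5 of 6 (1129 RPM in WT against 375 RPM in *Igfbp7*-/-) and the leukocyte list in 6 of 7 (648 and 124 RPM). Fibroblast markers were lower in 4 of 6 (9060 and 4582 RPM), and adipocyte markers in 3 of the 4 that passed 1 RPM (563 and 192 RPM), with *Lep* higher. Of the erythroid list, none of the 3 genes that passed 1 RPM differed by 1.5 times, with sums of 889 RPM for WT and 997 RPM for *Igfbp7*-/-. *Alas2* was just short of it (-0.58). With TMM factors 1 gene of this list was lower, and with the caseins left out of the library totals 1 was higher. The part of these cells in the casein ratios was not tested.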

How the data were processed

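The authors sequenced 1 poly(A) RNA library per genotype as 35 and 75 bp paired-end reads on a SOLiD sequencer after 2 rounds of poly(A) selection. Per the methods, ribosomal, mitochondrial and small nuclear RNA was filtered out, and reads were mapped with at most 3 mismatches. The labels name the build mm9 and the submitters' processing notes list Bowtie 0.12.3 and SAMtools 0.1.15, whereas the methods name a human build. For each gene the authors deposited the raw read count, the RPM, which is that count per 1000000 mapped reads, and the RPKM, which is the RPM per kilobase of gene length. The mapped total behind the RPM exceeds the listed counts, so that reads outside the listed genes lower every RPM.

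The groups were taken from the labels, and genes were joined by symbol. Ratios of *Igfbp7*-/- to WT were computed as log2 of RPM plus 0.1, over genes that reached 1 RPM in either library, and genes were counted at 1.5 times, the fold used in the study. With 1 library per genotype no test was made. Shares and ratios of *Igfbp7*-/- to WT carry exact 95% Clopper-Pearson intervals on read pairs (the count divided by 2), without the pseudocount. Ratios to *Csn2* carry the exact conditional 95% interval of the odds ratio, also on read pairs. At this depth 3 reads were 0.0874 RPM for WT and 0.0857 RPM for *Igfbp7*-/-. The scripts were tested on simulated counts.

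The named genes were the 5 caseins, neighbours within 500 kb above 1 RPM, up to 4 members of each list with at least 10 RPM and the largest ratios past 1.5 times, 9 genes of casein control and whey whatever their values, the 5 genes nearest the summed caseins among those of at least 1000 RPM, the 10 highest genes of each library and *Igfbp7*. Not every gene that the rule allows is printed, and *Cish*, *Sec61a1*, *Ssr1*, *Sec11a*, *Spcs2*, *Spcs3*, *Ssr3*, *Fam20c*, *Odam*, *Plin2*, *Btn1a1*, *Xdh*, *Epcam*, *Cdh1* and *Lep* were named after their values had been seen. The members and lists were chosen with earlier results of these data known. Of the lists, *Mia3*, *Wfdc18* and *Ly76* had no row of that symbol, and some genes are in more than one list (*Wap*, *Lalba*, *Elf5*, *Btn1a1*, *Prlr*).

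The alternatives were other library totals (reads on named genes, with and without the caseins or the 20 most abundant genes, TMM and median-of-ratios factors), RPKM, pseudocounts of 1 and 0.01 RPM, no minimum, minima of 10 RPM in one and 1 RPM in both libraries, a ratio of 2 and intervals on single reads. A total without ribosomal, small nuclear and small nucleolar RNA rows, and annotated transcript lengths, were added after the data had been seen. Coordinates come from the NCBIM37 annotation and promoters from RefSeq (GRCm38.p6). Casein protein sequences were not analysed here. Python 3.11.15 was used with numpy 2.4.6, pandas 2.3.3, scipy 1.17.1 and matplotlib 3.10.9, and R 4.3.3 with edgeR 4.0.16 and DESeq2 1.42.0 for the scaling factors only.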

Additional observations from a re-analysis of the deposited data

Results flagged for a closer look

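Reads that reach no casein or other named gene differed between the libraries. In *Igfbp7*-/-, 27.7% of the mapped reads lay outside the listed rows, against 17.6% in WT, and what these reads are was not analysed here. The 50 rows without a gene symbol summed to 484.3 RPM in *Igfbp7*-/- and 407.5 RPM in WT. Both are part of the mapped total behind the RPM of the caseins, and their part in the casein ratios is seen only in the values that take reads on named genes as the total.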

How the results depend on the processing

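Each casein and their sum stayed lower in *Igfbp7*-/- under every alternative that was run. The log2 ratio of the summed caseins, -1.35 with the deposited RPM, was -1.16 with reads on named genes as the total, -1.28 with those reads without the caseins, -1.30 without the 20 most abundant genes, -1.37 with TMM factors and -1.15 without ribosomal, small nuclear and small nucleolar RNA rows, the last chosen after the data had been seen. The casein share was 13.3% in WT and 5.97% in *Igfbp7*-/- when taken of reads on named genes. Of all genes, 3006 were higher and 3231 lower in *Igfbp7*-/- by at least 1.5 times. These became 4741 and 5279 with no minimum, 1696 and 1672 with at least 10 RPM, 1352 and 1936 at a ratio of 2, and 3710 and 3209 with the caseins left out of the total, so that the larger count changed sides with the caseins left out and with at least 10 RPM. The median log2 ratio of the casein regulators changed sign with TMM factors (0.011 to -0.0099) and that of the other milk proteins with the caseins left out (-0.026 to 0.045). In the folding and transport list, 5 genes in place of 1 were higher with the caseins left out of the total. No paired analysis was possible because each genotype has 1 library, and for the same reason no replicate could be left out. Depth does not limit the 4 abundant caseins, whereas *Csn1s2b* and the neighbouring sulfotransferase genes carry wider intervals.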
